A study of Arabidopsis thaliana with 18 samples.

Results

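The transcripts described here were higher in seedlings of the Arabidopsis mutants rao1-1 and rao1-2 than in wild type when sprayed with water (mock) instead of inhibitor. They were chosen by their mock arrays, on the group means of log2 intensity: the mean of each mutant lay at least 1 log2 unit above that of wild type and at least at an intensity of 32, and all 6 mutant mock values lay above all 3 wild-type mock values. Of 22746 probe sets, each of which reads 1 transcript or a few related ones on the Affymetrix ATH1 array, 123 met these conditions, and 122 remained after 4 genes (CHIL, WES1, CYTC-2 and STZ), of which only CHIL met the rule, were left out by name. A single gene was named for 51 of the 122, and the other 71 were unnamed here. The mock difference between mutant and wild type is thus a property of the choice and carries no test. The levels on the 9 antimycin A arrays did not enter the choice and are tested below, in a fit that takes the spread between replicates from all 18 arrays, the mock arrays of the choice included. The counts from the 9 antimycin A arrays alone, which hold nothing of the choice, stand beside it.

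Each of the 6 groups held 3 arrays of whole green tissue from 14-day-old seedlings, sampled 3 h after spraying. The groups were rao1-1, rao1-2 and wild type (Col:LUC) sprayed with 50 µM antimycin A, and rao1-1, rao1-2 and wild type sprayed with deionised water, called mock. The mutants are named after AOX1a, the alternative oxidase gene, and the series' design text traces them to forward genetic screens. Each mutant is a single line, and neither other mutations it may carry nor the number of seedlings behind an array is given in the sources used here. Nothing says that the 3 arrays of a group came from separate plantings, so a p-value covers only the array-to-array spread, part of which may be technical. In such bulk tissue, fewer cells of a type and less RNA per cell cannot be told apart.

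The title of the series names the cyclin-dependent kinase CDKE1. This kinase, together with C-type cyclins and partner proteins, forms the kinase module of Mediator, the complex that links transcription factors to RNA polymerase II, and the module is known to restrain some genes and to promote others. Antimycin A blocks electron transfer in respiratory complex III, and plant cells answer such a block through mitochondrial retrograde signalling, in which nuclear genes respond to the state of the organelle. Alternative oxidase, which carries electrons past the blocked complex, is the best known product of such signalling.

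On the arrays as a whole, 62.0% of values lay above a background limit of 4.25 log2 units (an intensity of 19.0). Mean correlations within groups were 0.985 to 0.995, the lowest for replicate 1 of rao1-2 mock, an array that entered the choice of members. Bacterial and phage control probe sets added at hybridisation, 12 of them, had a mean log2 intensity of 11.88 ± 0.06 in rao1-1, 11.89 ± 0.06 in rao1-2 and 11.81 ± 0.02 in wild type under antimycin A. Under mock they had 11.62 ± 0.08, 11.68 ± 0.02 and 11.80 ± 0.05 in the same order (SD, n = 3), so that the mutants' mock arrays were lower in these controls. When each array was centred on them, 173 probe sets met the rule, among them all 122. Of 10 green tissue markers 4 were named here, and their summed intensity was 60940 to 70980 in rao1-1, 59500 to 62380 in rao1-2 and 59090 to 67210 in wild type under antimycin A, and 67530 to 73420, 67960 to 78000 and 74820 to 86000 under mock. Of 9 root markers 3 were named: the root hair expansin genes EXPA7 and EXPA18 were under the limit on all 18 arrays, and the sum, carried by the beta-glucosidase gene PYK10, was 629 to 1139 in rao1-1, 323 to 1115 in rao1-2 and 695 to 1286 in wild type under antimycin A. Under mock that sum was 761 to 1474, 62.1 to 797 and 669 to 1001 in the same order. Centred on the hybridisation controls, 30 members in rao1-1 and 19 in rao1-2 were called higher than wild type under antimycin A, against 35 and 23 as deposited. Over all 22746 probe sets, 612 and 463 were called in either direction with this centring, against 743 and 560 as deposited. The part of the tissue markers in the results was not tested.

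**Figure D1:**
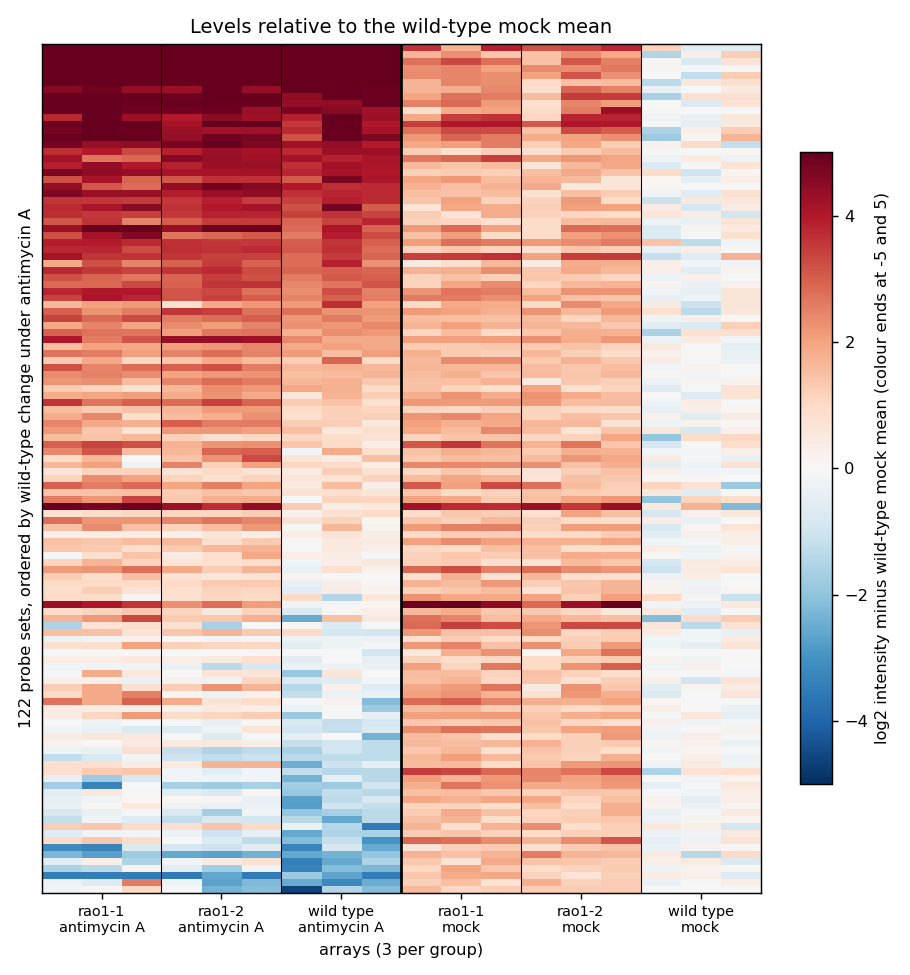
Each row is 1 of the 122 probe sets and each column 1 of the 18 arrays, with colour giving log2 intensity minus the wild-type mock mean of that probe set. Rows run from the largest wild-type rise under antimycin A at the top to the largest fall at the bottom. The 6 mutant mock arrays are above the wild-type mock arrays in every row by choice. With antimycin A, the upper rows show rises in all 3 genotypes. The lower rows show falls in wild type, while some of them stay above the wild-type mock mean in the mutants.

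Under mock the members stood a median of 1.68 log2 units above wild type in rao1-1 (quartiles 1.34 and 2.22) and 1.49 above it in rao1-2 (1.28 and 1.90), against a median over all probe sets of 0.00 in rao1-1 and -0.01 in rao1-2. The difference was the larger one in rao1-1 for 82 of 122 members. In wild type, 9 members lay under the background limit on all 3 mock arrays, and for these a fold is given as a bound, with wild type set to the limit. Just inside the limit of 1, the lower of the mutants' differences was 1.006 for AT5G58390, 1.010 for an unnamed probe set and 1.010 for AT2G31110. Just outside it was 0.994 for AT1G62500, 0.991 for an unnamed probe set and 0.985 for UGT74D1.

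By the smaller of the mutants' mock differences, the first of the named members was AT5G62210, which encodes a protein of the embryo-specific ATS3 family. Its mock intensities were 138, 153 and 106 in rao1-1, 33.6, 94.2 and 201 in rao1-2 and 4.11, 3.77 and 6.60 in wild type, which is at least 6.91-fold higher and at least 4.53-fold higher in rao1-1 and rao1-2. The 3 wild-type arrays lay far under the limit and the rao1-2 arrays spread widely. AT4G23680, of the major latex protein-like family, had 328, 234 and 231 in rao1-1, 342, 203 and 355 in rao1-2 and 24.6, 58.3 and 3.79 in wild type under mock, 14.8-fold higher in rao1-1 and 16.5-fold higher in rao1-2. The ratio between the highest and the lowest array was far larger in wild type than in either mutant. TET9, a tetraspanin gene, read 50.1, 13.4 and 60.1 in rao1-1, 36.9, 41.4 and 54.7 in rao1-2 and 8.95, 2.82 and 2.64 in wild type, at least 1.81-fold higher and at least 2.30-fold higher in the mutants, and 1 of the 3 rao1-1 arrays was under the limit.

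SAL2, a gene of the bisphosphate nucleotidase and inositol phosphatase family, had 38.6, 115 and 126 in rao1-1, 21.1, 146 and 145 in rao1-2 and 9.28, 8.10 and 15.0 in wild type under mock. Every wild-type array was under the limit, and the mutants were at least 4.35-fold higher and at least 4.03-fold higher. AT1G43910, a gene of an AAA-type ATPase, had 513, 778 and 758 in rao1-1, 217, 778 and 645 in rao1-2 and 26.7, 97.5 and 184 in wild type. The lowest rao1-2 array, replicate 1, was close to the highest wild-type one, replicate 3. AT3G10930, the gene of a small peptide of the IDA-like family, showed tight groups with 109.9, 118 and 88.4 in rao1-1, 111, 109 and 135 in rao1-2 and 24.2, 20.8 and 20.3 in wild type. The mutants were 4.81-fold higher and 5.42-fold higher, and the 3 wild-type arrays were just above the limit. AT4G23870 had 73.1, 73.9 and 76.0 in rao1-1, 85.2, 63.0 and 80.1 in rao1-2 and 14.4, 24.0 and 15.9 in wild type, 4.21-fold higher and 4.28-fold higher in the mutants.

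The chitinase family gene AT3G47540 read 441, 617 and 561 in rao1-1, 287, 457 and 457 in rao1-2 and 84.7, 71.7 and 143 in wild type under mock, and scpl31, the gene of a serine carboxypeptidase-like protein, 106, 98.5 and 84.1 in rao1-1, 117, 76.8 and 109 in rao1-2 and 41.9, 9.87 and 36.0 in wild type. Wild-type replicate 3 was the highest of its group for AT3G47540, and wild-type replicate 2, under the limit, was well below the others for scpl31. AT4G10270, of a wound-responsive protein family, had 86.5, 44.3 and 128 in rao1-1, 41.7, 97.5 and 166 in rao1-2 and 17.7, 24.3 and 20.5 in wild type, and AT1G26930, a kelch-repeat F-box gene, 86.3, 115 and 88.2 in rao1-1, 115, 87.5 and 70.7 in rao1-2 and 23.8, 15.7 and 38.7 in wild type. The cytochrome P450 gene AT3G44970 had 213, 246 and 168 in rao1-1, 108, 104 and 123 in rao1-2 and 32.9, 30.2 and 28.4 in wild type, so that rao1-1 lay above rao1-2 on every array. In rao1-1 and rao1-2, mock levels were 5.60-fold higher and 4.096-fold higher than wild type for AT3G47540, 3.90-fold higher and 4.04-fold higher for scpl31, 3.82-fold higher and 4.25-fold higher for AT4G10270, 3.93-fold higher and 3.66-fold higher for AT1G26930, and 6.78-fold higher and 3.65-fold higher for AT3G44970.

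The question for the antimycin A arrays was whether transcripts raised in the mutants under mock were also higher there with the inhibitor. In rao1-1, 35 of 122 members (28.7%) were called higher than in wild type and 0 lower, whereas over all 22746 probe sets 1.77% were called higher and 1.49% lower. In rao1-2, 23 members (18.9%) were called higher and 0 lower, against 1.34% and 1.12% of all probe sets. Calls are at an adjusted p under 0.05 by limma. Fitted on the 9 antimycin A arrays alone, 19 members (15.6%) were called higher and 0 lower in rao1-1, against 0.721% and 0.862% of all probe sets, and 13 (10.7%) higher and 0 lower in rao1-2, against 0.514% and 0.453%. At an unadjusted p under 0.05 in the fit of all arrays, 62 members (50.8%) passed in rao1-1, in either direction, against 17.9% of all probe sets, and 54 (44.3%) in rao1-2, against 14.4%. The 3 mutant arrays lay above the 3 wild-type arrays, with no overlap, for 67 members (54.9%) in rao1-1, against 14.7% of all probe sets, and for 62 (50.8%) in rao1-2, against 10.2%. Both comparisons use the same 3 wild-type arrays.

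The size of the difference was smaller than under mock for most members. Under antimycin A the median over members was 0.73 log2 units in rao1-1 (quartiles 0.18 and 1.35) and 0.67 in rao1-2 (0.20 and 1.2), against 0.06 and 0.02 over all probe sets, and 102 of 122 members had a mean above wild type in each comparison, as had 63.9% of all probe sets in rao1-1 and 59.9% in rao1-2. It was smaller than the mock difference for 103 members in each mutant, the mock difference being large by choice. By array, the median over members stood 0.73, 0.78 and 0.80 log2 units above the wild-type mean in rao1-1, 0.53, 0.61 and 0.72 above it in rao1-2, and -0.20, 0.22 and -0.001 from it in wild type. No mutant array overlapped the wild-type arrays in this median. Without replicate 1 or 3 of rao1-2 antimycin A, 15 and 13 members were called in rao1-2. Over all 22746 probe sets, 295 and 306 were then called in rao1-2 in either direction, against 560 with all arrays.

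**Figure D2:**
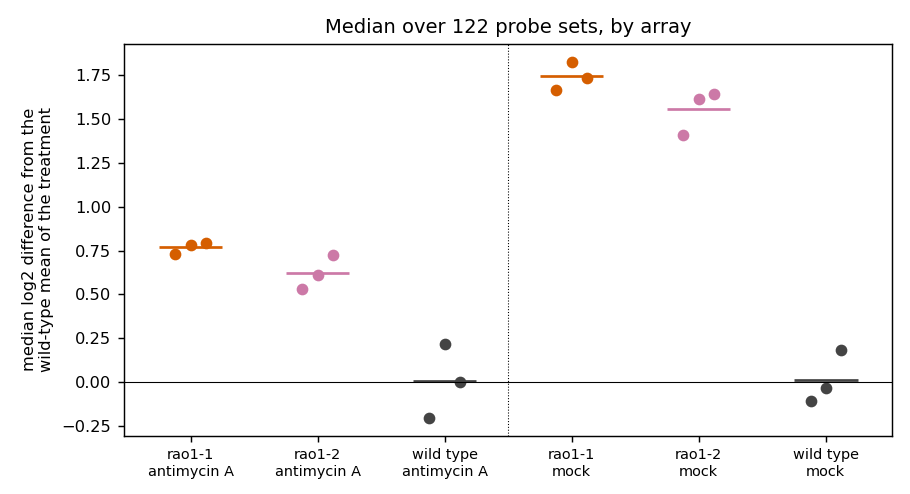
Each point is 1 array and gives the median over the 122 probe sets of log2 intensity minus the wild-type mean of the same treatment; the line is the mean of the 3 arrays. With antimycin A the mutant arrays lie between 0.53 and 0.80 and the wild-type arrays between -0.20 and 0.22, while the mock values, from 1.41 to 1.83 in the mutants, reflect the choice of members.

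**Figure D3:**
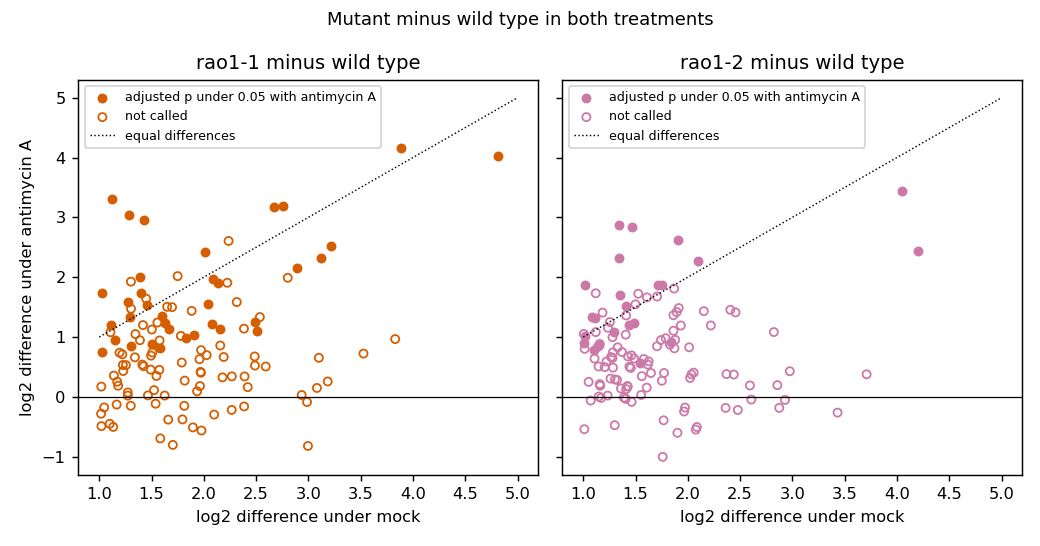
Each point is 1 of the 122 probe sets, with the log2 difference from wild type under mock, which chose the members, on the x axis and the difference under antimycin A on the y axis. Filled points, 35 in rao1-1 and 23 in rao1-2, were called higher under antimycin A; most points lie under the dotted line of equal differences and above 0.

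Of the named members, 14 were called higher in rao1-1 and 10 in rao1-2 under antimycin A. The largest difference in both comparisons belonged to AT4G23680, of the major latex protein-like family, with 544, 468 and 519 in rao1-1, 349, 227 and 378 in rao1-2 and 42.3, 22.5 and 24.4 in wild type. It was 17.9-fold higher in rao1-1 and 10.9-fold higher in rao1-2, or 4.16 ± 0.68 in rao1-1 (adjusted p = 0.00565) and 3.44 ± 0.68 in rao1-2 (adjusted p = 0.0197) on the log2 scale. AT5G62210, of the ATS3 family, read 90.8, 77.9 and 55.9 in rao1-1, 22.7, 32.1 and 20.05 in rao1-2 and 4.19, 4.37 and 5.05 in wild type. Wild type stayed under the limit, and the mutants were at least 3.87-fold higher and at least 1.29-fold higher. With wild type taken as read, the log2 differences were 4.02 ± 0.47 in rao1-1 (adjusted p = 0.000548) and 2.435 ± 0.47 in rao1-2 (adjusted p = 0.0163). These p-values belong to the log2 differences, which rest on wild-type readings under the limit, and not to the bounds. The rao1-1 arrays of AT5G62210 all lay above its rao1-2 arrays. The rao1-2 calls of these genes depended on single arrays: that of AT4G23680 was lost without replicate 1 or 3 of rao1-2 or replicate 2 or 3 of wild type (adjusted p up to 0.0691), and that of AT5G62210 without replicate 2 of rao1-2 or of wild type (up to 0.0663).

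AT4G23870 had 292, 107 and 158 in rao1-1, 359, 367 and 332 in rao1-2 and 92.3, 64.9 and 64.7 in wild type under antimycin A. Here rao1-2 lay above rao1-1 on each array, with differences from wild type of 1.22 ± 0.29 in rao1-1 (adjusted p = 0.0342) and 2.27 ± 0.29 in rao1-2 (adjusted p = 0.0017). AT5G22390 had 307, 165 and 204 in rao1-1, 179.9, 272 and 193 in rao1-2 and 62.7, 68.5 and 45.5 in wild type, with no overlap between either mutant and wild type. Its differences were 1.91 ± 0.25 in rao1-1 (adjusted p = 0.00185) and 1.87 ± 0.25 in rao1-2 (adjusted p = 0.00261), and the calls held in all alternatives run. AT1G70000, a MYB-related gene, read 245, 146 and 183 in rao1-1, 207, 249 and 157 in rao1-2 and 83.5, 89.0 and 83.8 in wild type. It was 2.19-fold higher in rao1-1 (adjusted p = 0.00392) and 2.35-fold higher in rao1-2 (adjusted p = 0.00332), with the wild-type arrays close together. The rao1-1 call of AT4G23870 was lost without replicate 1 or 3 of rao1-1 or replicate 2 or 3 of wild type (adjusted p up to 0.112).

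AT1G60060 had 48.4, 48.3 and 48.7 in rao1-1, 48.2, 61.3 and 61.1 in rao1-2 and 18.7, 30.4 and 26.1 in wild type, 1.97-fold higher in rao1-1 (adjusted p = 0.012) and 2.30-fold higher in rao1-2 (adjusted p = 0.00526). The wild-type arrays were near the limit, 1 of them under it. AT5G22580, of a stress-responsive protein family with an A/B barrel fold, had 1819, 3862 and 2768 in rao1-1, 1777, 1553 and 2796 in rao1-2 and 713, 1119 and 1013 in wild type. Its differences were 1.53 ± 0.26 in rao1-1 (adjusted p = 0.00726) and 1.08 ± 0.26 in rao1-2 (adjusted p = 0.048). Replicate 1 was the lowest array of rao1-1 and of wild type. The RING-type ubiquitin ligase gene AT3G43430 had 178, 171 and 129 in rao1-1, 172, 221 and 231 in rao1-2 and 65.6, 96.7 and 86.2 in wild type, with differences of 0.95 ± 0.23 in rao1-1 (adjusted p = 0.0411) and 1.33 ± 0.23 in rao1-2 (adjusted p = 0.00951). The rao1-2 call of AT5G22580 and the rao1-1 call of AT3G43430 lay near the threshold. When arrays were left out 1 at a time, that of AT5G22580 held only without replicate 1 or 2 of rao1-1 (adjusted p up to 0.164), and that of AT3G43430 only without replicate 3 of rao1-1 or replicate 1 of rao1-2 (up to 0.136).

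**Figure D4:**
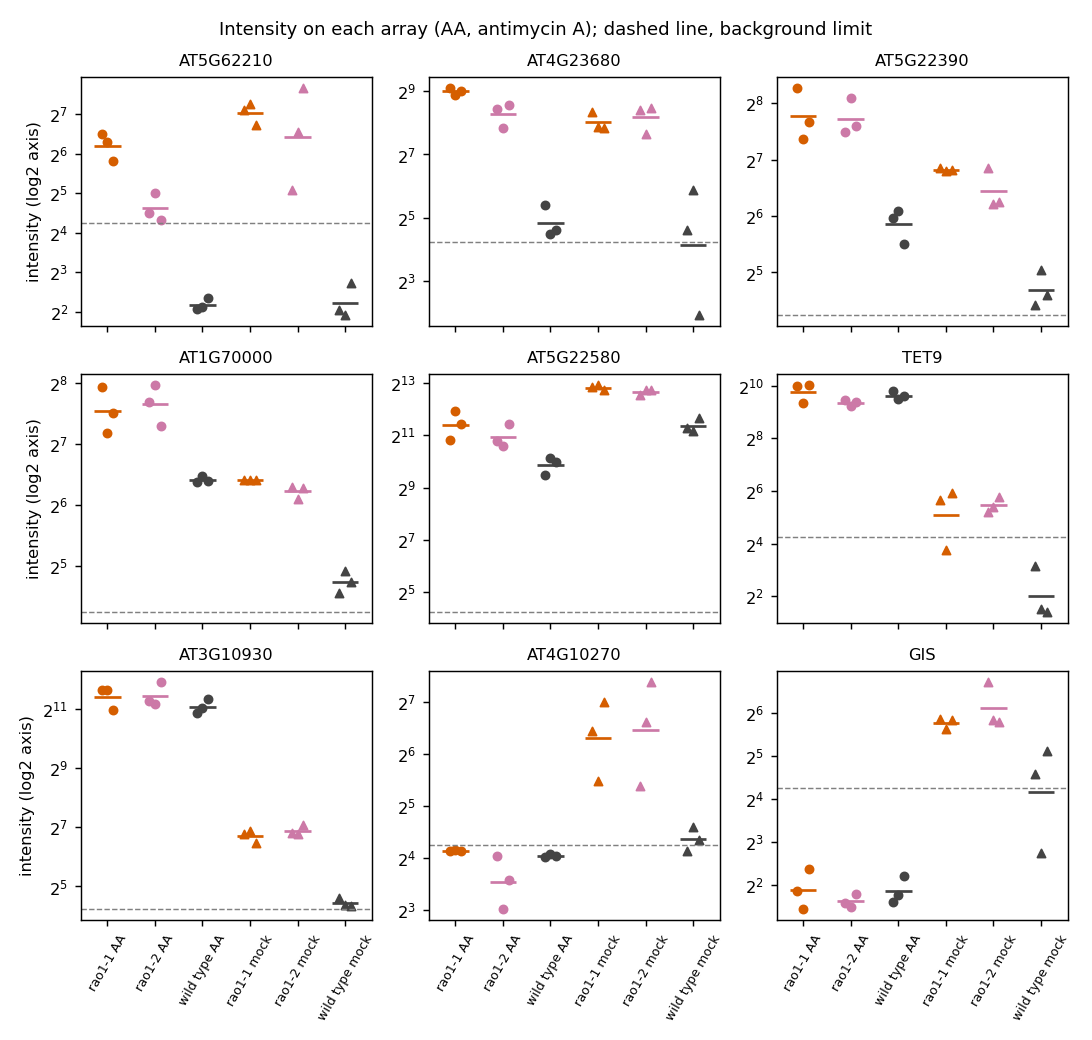
Each panel is 1 named member, with intensity on a log2 axis for the 3 arrays of each group (circles, antimycin A; triangles, mock), a line at the mean of the log2 values and a dashed line at the background limit of 19.0. AT5G62210, AT4G23680, AT5G22390, AT1G70000 and AT5G22580 are higher in the mutants in both treatments, TET9 and AT3G10930 stand higher with antimycin A in all genotypes, and AT4G10270 and GIS are under the limit in all genotypes with antimycin A.

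Grouped by what the genes are known to encode, 6 named members concern the cell wall or belong to the secreted peroxidases, a grouping made after the values were seen. Among them, TBL40 (AT2G31110), of the wall polysaccharide acetyltransferase family, averaged 609 ± 53.8 in rao1-1, 892 ± 147 in rao1-2 and 476 ± 31.6 in wild type under antimycin A (SD, n = 3). It was called in rao1-2 (0.89 ± 0.16, adjusted p = 0.011) and not in rao1-1 (0.36 ± 0.16, adjusted p = 0.263). The peroxidase gene AT5G58390 averaged 172 ± 24.9, 152 ± 32.1 and 75.7 ± 25.6 in the same order and was called in rao1-1 (adjusted p = 0.0405) and not in rao1-2 (adjusted p = 0.0909). That call was lost without any of the 3 rao1-1 arrays, replicate 1 or 3 of rao1-2 or replicate 1 or 2 of wild type (adjusted p up to 0.116). The chitinase family gene AT3G47540 had 1324, 1545 and 1512 in rao1-1, 846, 933 and 636 in rao1-2 and 477, 881 and 548 in wild type and was called in rao1-1 (1.25 ± 0.28, adjusted p = 0.029) but not in rao1-2 (0.37 ± 0.28). Without any of the 3 rao1-1 arrays or replicate 1 or 3 of wild type its adjusted p was up to 0.0962. Expansin-like EXLB1 (85.5 ± 60.3, 86.0 ± 40.9 and 25.1 ± 9.82) and the pectin methylesterase gene PMEPCRF (410.4 ± 78.9, 422 ± 39.8 and 217 ± 63.3) did not pass in either mutant, with differences of 1.64 ± 0.47 and 1.73 ± 0.47 for EXLB1 and 0.95 ± 0.26 and 1.00 ± 0.26 for PMEPCRF. EXLB1 passed in rao1-2 without replicate 3 of rao1-1 or replicate 2 of rao1-2, and PMEPCRF passed in each mutant when only probe sets above the background limit were tested. The last of the 6, the peroxidase gene Prx37, is described further on.

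Among genes of metabolism and transport, AT3G44970, the cytochrome P450 gene, had 203, 112 and 235 in rao1-1, 109, 47.0 and 58.2 in rao1-2 and 28.7, 35.4 and 6.84 in wild type. It was 9.14-fold higher in rao1-1 (adjusted p = 0.00395) and passed in rao1-2 (1.81 ± 0.50, adjusted p = 0.0776) only without replicate 2 of wild type. AT5G11930, a glutaredoxin gene, averaged 147 ± 73.0 in rao1-1, 39.3 ± 7.33 in rao1-2 and 26.0 ± 8.07 in wild type under antimycin A, and was called in rao1-1 (2.43 ± 0.44, adjusted p = 0.00944) and not in rao1-2 (0.63 ± 0.44). The sugar transporter gene SWEET13 read 36.6, 27.3 and 257 in rao1-1, 37.4, 6.73 and 9.28 in rao1-2 and 7.53, 4.68 and 7.65 in wild type. Its wild-type arrays and most rao1-2 arrays were under the limit, and rao1-1 replicate 3 was far above the other arrays of its group. It was at least 3.35-fold higher in rao1-1 (adjusted p = 0.026), a call lost without replicate 2 or 3 of wild type (adjusted p up to 0.0894). The glucosyltransferase family gene AT2G16890 had differences of 2.61 ± 0.95 and 1.68 ± 0.95 and was not called. Neither were the pyruvate kinase family gene AT3G49160 (0.27 ± 0.31 and 0.64 ± 0.31) and the dehydrogenase family gene AT5G50130 (0.51 ± 0.23 and 0.66 ± 0.23).

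AT3G60520 averaged 593 ± 36.5 in rao1-1, 496 ± 43.3 in rao1-2 and 336 ± 25.7 in wild type, with differences of 0.82 ± 0.11 in rao1-1 (adjusted p = 0.00197) and 0.56 ± 0.11 in rao1-2 (adjusted p = 0.0197). Its rao1-2 call was lost without replicate 2 or 3 of rao1-2 or replicate 1 or 2 of wild type (adjusted p up to 0.073). Among genes linked to proteolysis, scpl31 had 193, 118 and 145 in rao1-1, 289.7, 269.6 and 163 in rao1-2 and 166, 118 and 116 in wild type and did not pass (0.18 ± 0.43 and 0.83 ± 0.43). The subtilase gene AT4G21650 (0.54 ± 0.40 and 0.83 ± 0.40) and the serine carboxypeptidase gene AT5G22860 (-0.15 ± 0.19 and 0.29 ± 0.19) did not pass. AT1G26930, the kelch-repeat F-box gene, had 88.3, 95.6 and 102 in rao1-1, 87.9, 116 and 90.06 in rao1-2 and 37.5, 80.5 and 56.6 in wild type and did not pass either (0.78 ± 0.31 and 0.81 ± 0.31). The gene AT3G44450, known as BIC2 and encoding an inhibitor of cryptochrome blue light receptors, averaged 1366 ± 338, 957 ± 79.1 and 650 ± 169 in rao1-1, rao1-2 and wild type (1.08 ± 0.33 and 0.59 ± 0.33, not called). GID1B, a gibberellin receptor gene, had 354 ± 13.9, 377 ± 56.9 and 387 ± 64.1, and did not pass (-0.12 ± 0.40 and -0.03 ± 0.40).

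Some calls of named members also depended on the fit or the scaling. On the 9 antimycin A arrays alone, the rao1-1 calls of AT4G23870, AT3G47540, AT3G44970, AT1G70000, AT5G22580, SWEET13, AT3G43430 and AT5G58390 and the rao1-2 calls of AT1G70000 and AT5G22580 were lost. Centring on poly(A) controls ended those of AT4G23870 and AT3G47540 in rao1-1 and of AT3G60520 and AT5G22580 in rao1-2, and centring on hybridisation controls those of AT3G43430 and AT5G58390 in rao1-1 and of AT5G22580 in rao1-2, which quantile normalization ended too.

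Other members with a large mock difference did not pass with the inhibitor. TET9, the tetraspanin gene, had 1006, 642 and 1033 in rao1-1, 707, 606 and 661 in rao1-2 and 879, 720.5 and 773 in wild type, with differences of 0.15 ± 0.51 and -0.26 ± 0.51. The rao1-2 arrays all lay below the wild-type arrays, and the rao1-1 arrays overlapped them. AT3G10930, the IDA-like peptide gene, had 3188, 3212 and 1986 in rao1-1, 2494, 2274 and 3822 in rao1-2 and 1851, 2099 and 2572 in wild type. Its differences were 0.34 ± 0.22 and 0.37 ± 0.22, and its groups overlapped. AT1G43910, the ATPase gene, read 2121, 2853 and 2365 in rao1-1, 1558, 1449 and 1485 in rao1-2 and 1044, 2586 and 1366 in wild type, with wild-type arrays spread more widely than either mutant (0.65 ± 0.60 and -0.05 ± 0.60).

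The named members with the lowest mean difference under antimycin A were Prx37, AT5G22530, SAL2, AT5G61560, AT4G10270 and AT1G25370, none of them called. The peroxidase gene Prx37 had 884, 1667 and 723 in rao1-1, 823, 1184 and 1179 in rao1-2 and 799, 2486 and 1552 in wild type, with differences of -0.51 ± 0.42 and -0.47 ± 0.42. AT5G22530 had 1461, 1406 and 1405 in rao1-1, 1443, 1192 and 1053 in rao1-2 and 1596, 2251 and 1760.4 in wild type (-0.38 ± 0.49 and -0.60 ± 0.49). The U-box kinase gene AT5G61560 had 1278, 1568 and 996 in rao1-1, 1496, 2000.2 and 1775 in rao1-2 and 1337, 1981 and 1923 in wild type (-0.45 ± 0.22 and 0.02 ± 0.22). For AT5G22530 all 3 wild-type arrays lay above all mutant arrays, and for Prx37 and AT5G61560 the groups overlapped. SAL2 had 141, 326 and 204 in rao1-1, 164, 235 and 199 in rao1-2 and 155, 351 and 206 in wild type (-0.09 ± 0.67 and -0.18 ± 0.67), and AT1G25370 853, 1216 and 555 in rao1-1, 800.5, 1122 and 1122 in rao1-2 and 733, 1028 and 1374 in wild type (-0.28 ± 0.33 and -0.01 ± 0.33). AT4G10270, the wound-responsive family gene, was under the limit on all 9 antimycin A arrays, with 17.603, 17.7 and 17.59 in rao1-1, 16.4, 8.15 and 11.9 in rao1-2 and 16.3, 16.9 and 16.4 in wild type, so that no fold can be given.

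The response to antimycin A within each genotype shares its mock arrays with the choice of members, which took transcripts low in wild type and high in the mutants, so the following are descriptions. At least 2-fold higher means under antimycin A than under mock were seen for 40 members in rao1-1, 45 in rao1-2 and 54 in wild type, against 9.31%, 9.98% and 9.68% of all probe sets. At least 2-fold lower means were seen for 27, 28 and 22 members, against 9.59%, 11.1% and 10.7%. The median change was 0.06 in rao1-1, 0.13 in rao1-2 and 0.81 in wild type. With the inhibitor, wild type reached or passed the mean mock level of the mutants in 48 of 122 members and stayed below it in 74.

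Members differed widely in this response. TET9 averaged 893 ± 218 in rao1-1, 658 ± 50.4 in rao1-2 and 791 ± 80.9 in wild type under antimycin A, against 41.2 ± 24.6, 44.3 ± 9.23 and 4.80 ± 3.59 under mock. AT5G52760, a gene of a heavy metal-binding domain protein, averaged 14347 ± 1788, 13099 ± 457 and 10056 ± 1971 under antimycin A, against 2393 ± 601, 1584 ± 782 and 453 ± 220.1 under mock. It was 6.09-fold higher, 9.19-fold higher and 23.8-fold higher with the inhibitor in rao1-1, rao1-2 and wild type. At the other end, GIS, a zinc-finger regulator of trichome initiation, averaged 3.83 ± 1.24, 3.09 ± 0.349 and 3.70 ± 0.833 under antimycin A, under the limit on every array, against 55.004 ± 4.62, 72.7 ± 28.2 and 21.9 ± 14.2 under mock. AT4G19430 averaged 101 ± 17.2, 137 ± 62.8 and 70.8 ± 9.67 under antimycin A and 822 ± 129.7, 491 ± 117 and 136 ± 16.3 under mock, lower with the inhibitor in all genotypes.

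Split by the wild-type mean change, the calls under antimycin A were unequal, with the reservation that the wild-type antimycin A arrays enter both measures. Of the 54 members at least 2-fold higher with the inhibitor in wild type, 7 were called higher in rao1-1 and 6 in rao1-2, with median differences of 0.39 and 0.37. Of the 46 that changed less than 2-fold, 17 and 11 were called, with medians of 1.06 and 0.97, and of the 22 at least 2-fold lower, 11 and 6 were called, with medians of 1.48 and 1.22. The mock medians of these 3 groups were 1.86, 1.72 and 1.45 in rao1-1 and 1.62, 1.49 and 1.41 in rao1-2. The difference between these groups of members was not tested. Shares called over all probe sets with the same wild-type response were not computed. The inequality is therefore not known to be particular to the members.

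Between the mutants, 0 of 122 members were called under antimycin A by limma, with rao1-2 set against rao1-1, where 0.0572% of all probe sets were called higher and 0.044% lower. At an unadjusted p under 0.05, 25 members (20.5%) passed, against 9.11% of all probe sets. The median difference was -0.07 (quartiles -0.41 and 0.22), against -0.04 over all probe sets. Members whose mutants stood far apart were SWEET13, at -2.26 ± 0.73, and AT5G11930, at -1.79 ± 0.44, both lower in rao1-2, and AT4G23870, at 1.05 ± 0.29, higher in rao1-2. They were picked after their values were seen, and their adjusted p-values were 0.302, 0.163 and 0.218. Without replicate 1 of rao1-1 antimycin A, 4 members were called, and so were 113 of all 22746 probe sets, against 23 with all arrays. Fitted on the antimycin A arrays alone, 1 member was called, against 0.0659% of all probe sets.

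Among the unnamed members, 21 of 71 were called higher in rao1-1 and 13 in rao1-2 under antimycin A, with median differences of 0.72 and 0.65, against 14 and 10 of 51 and medians of 0.74 and 0.69 among the named ones. Chosen after the values were seen, the unnamed member with the largest rao1-1 difference had 134, 177 and 134 in rao1-1, 69.2, 44.4 and 29.2 in rao1-2 and 15.6, 31.9 and 8.78 in wild type. Its differences were 3.17 ± 0.47 in rao1-1 (adjusted p = 0.00289) and 1.45 ± 0.47 in rao1-2 (adjusted p = 0.133). The unnamed member with the largest rao1-2 difference had 33.1, 59.5 and 16.6 in rao1-1, 44.0, 65.8 and 80.2 in rao1-2 and 4.49, 8.03 and 16.6 in wild type, with differences of 1.92 ± 0.52 in rao1-1 (adjusted p = 0.0622) and 2.87 ± 0.52 in rao1-2 (adjusted p = 0.0124). Replicate 3 of rao1-1 and of wild type were level in that probe set, and both were under the background limit. The other wild-type arrays were under it too, so rao1-1 was at least 1.69-fold higher and rao1-2 at least 3.24-fold higher. Its p-values belong to the log2 differences, which rest on wild-type readings under the limit, and not to these bounds. Among the members not called, differences ran from -0.51 to 2.61 over 37 named and from -0.82 to 2.02 over 50 unnamed ones in rao1-1, and from -0.60 to 1.81 over 41 named and from -1.003 to 1.66 over 58 unnamed ones in rao1-2. Of the 122 probe sets, 2 carry the platform's mark for reading several transcripts alike and 1 that for possible cross-hybridisation, and all 3 were unnamed.

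The 51 named members lie on all 5 chromosomes of the RefSeq table, with 11, 3, 13, 9 and 15 on chromosomes 1 to 5. Few were neighbours: AT5G52740 and AT5G52760, which both encode proteins with a heavy metal-binding domain, are 2 places apart in the order of protein-coding genes, and AT5G22530 and AT5G22580 are 7 apart, the only adjacent members within 10 places. Probes for related neighbouring genes may share signal.

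No member was on any of the 19 lists of genes for known pathways, of which 7 had at least 3 genes named here. CHIL, which met the rule and was left out by name, is on the flavonoid and anthocyanin list. Named here were 0 of 18 salicylate and defence genes, 0 of 13 ethylene genes and 0 of 11 phosphate starvation genes. A member on these lists could not be recognised. For the same mutant against wild-type comparisons under antimycin A, of 8 mitochondrial dysfunction markers 0 were called higher and 3 lower in each mutant, with medians of -0.69 in rao1-1 and -1.09 in rao1-2. These were AT2G32020, AT5G09570 and the alternative NADH dehydrogenase gene NDB4. AT2G32020 averaged 1845 in rao1-1, 1558 in rao1-2 and 5022 in wild type (log2 differences -1.43 ± 0.14, adjusted p = 0.00017, and -1.67 ± 0.14, adjusted p = 7.13e-05). Of 3 auxin response genes, 1 was called higher in each mutant, the auxin-conjugating enzyme gene WES1, which missed the membership rule by the size of its rao1-1 mock difference (0.97). Of 4 cold and abscisic acid genes, LTI30, a dehydrin gene, was called lower in rao1-1 (-2.01 ± 0.44, adjusted p = 0.0246) and not in rao1-2 (-0.79 ± 0.44). None of the 6 rapid stress and touch genes (medians -0.25 and 0.01), the 5 flavonoid and anthocyanin genes (0.06 and -0.66), the 4 green tissue markers (0.05 and -0.05) or the 3 root markers (0.05 and -0.01) was called in either mutant by limma.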

How the data were processed

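Transcripts were measured on 18 arrays, 3 for each of 6 groups taken from the sample titles. The values deposited by the authors are normalized intensities on a linear scale, from 1.61 to 64819.8. Per the submitters' processing notes the tools were RMA and GCRMA, with no version; the sources used here do not say which one made these values. Both methods equalise arrays, so a change is one relative to most transcripts. Array medians were 78.0 to 92.1, and no 2 arrays were identical.

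Intensities were turned into log2 values with no pseudocount. The 64 control probe sets were left out, and the other 22746 were fitted with limma 3.58.1 in R 4.3.3, each group with its own mean (18 arrays, 12 residual degrees of freedom), with eBayes and two-sided p-values adjusted by Benjamini-Hochberg over all 22746. Calls are at an adjusted p under 0.05. Levels are intensities (mean ± SD, n = 3), and differences are log2 means ± SE. The background limit is the least dense point between the modes of all log2 values, set after they were seen. A fold against a group under it on all arrays is a bound ("at least"), taken with that group set to the limit. The tests set no value to the limit. The script was tested on simulated data.

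The platform annotation named 1 gene for 13513 probe sets and several for 503. Of the 13513, 13436 were matched to the RefSeq table of assembly TAIR10.1 by gene ID and 48 by locus tag, and 29 kept their given names. The members and gene lists were chosen with earlier results of these data known. Named in full were the 12 named members with the largest lower mock difference, 8 called in each mutant under antimycin A with the largest mean difference there, the 6 with the lowest, and any called between the mutants or on a list (0). Others are named by family. CDKE1 had no named probe set and was not analysed here. Alternatives covered the replicate block, the arrays fitted, normalization, centring, the limit and single arrays. No sequences were used here.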

Additional observations from a re-analysis of the deposited data

How the results depend on the processing

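The member counts under antimycin A were 35 (rao1-1) and 23 (rao1-2). They kept within 1.5 times of these values under quantile normalization, centring on poly(A) or hybridisation controls, and an intensity trend in eBayes. They also did so with only probe sets above the background limit. A new choice of members without rao1-2 mock replicate 1, made after seeing the data, held 167 probe sets, 111 of them among the 122. Of these 167, 31 were called in rao1-1 and 20 in rao1-2, lower shares than among the 122. Fitted on the 9 antimycin A arrays alone, the counts among the 122 fell to 19 and 13, with 1 member called between the mutants. Fewer arrays estimate the spread there. Leaving out single antimycin A arrays gave 24 to 33 members in rao1-1, 13 to 24 in rao1-2 and 0 to 4 between the mutants. The rule found 54 probe sets at a difference of 1.5, and 122 to 183 without single mock arrays, the highest without wild type mock replicate 3, where 113 of the 122 remained. Fewest of the 122 remained without wild type mock replicate 1, with 102, and without replicate 2, with 108. Poly(A) centring gave 111, of which 102 were members. With the replicate number as a block, 40 and 27 members were called, the rao1-1 calls of AT3G43430 and AT5G58390 were lost, and PMEPCRF and AT5G57785 passed in each mutant and AT3G44450 in rao1-1; the labels do not say that the numbers pair samples, same-numbered arrays of different groups deviated together with a mean correlation of 0.121 (27 of 45 pairs over 0.1), and 13 of 18 arrays correlated best with their own number. Over all probe sets, 743 were called in rao1-1, 560 in rao1-2 and 23 between the mutants in the main fit. With the replicate block these counts were 977, 679 and 19, so calls against wild type rose over all probe sets too. With the antimycin A arrays alone they were 360, 220 and 15, and with poly(A) centring 478, 380 and 16. Without single arrays they ran from 447 to 823, 265 to 731 and 14 to 113. For the 51 named members in both comparisons, 62 of 1630 values lost their call, 18 gained one and none of the called ones turned its sign. The 3 arrays per group limit the precision.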
